A study of Mus musculus with 17 samples.

Results

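The 10 genes described here serve butyrate uptake and fatty acid oxidation, and were followed in the colonic mucosa of mice during DSS colitis. They are Slc16a1, Slc5a8, Cpt1a, Cpt2, Acadvl, Acadm, Acads, Echs1, Hadh and Hadha. The list was set by gene function, with earlier results of these data known, and the arrays held 16 probe sets that name 1 of these genes and no other. The probe set with the highest mean over all samples stood for each gene. These are 10 of 18193 genes that the arrays measured with such a probe set, and 16 of 45037 probe sets.

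Mice of both genotypes were on the C57BL/6J background. CD4cre mice were PPAR γ flfl; CD4Cre+, and WT mice were the Cre- controls. Cre is driven by the CD4 promoter, which is already active in immature thymocytes, so that mature T cells of either lineage lack PPAR γ. Epithelial cells and macrophages of CD4cre mice keep the gene. All mice other than those of day 0, which had no DSS, drank water with 2.5% dextran sodium sulfate (DSS), an agent that injures the colonic epithelium. Total RNA of colonic mucosa was measured on days 0, 2 and 7. The 6 groups had 3 samples each, except WT mice on day 7, which had 2, so that there were 17 samples. The sources used here do not say whether a sample is 1 mouse or a pool, nor the age of the mice, and the p-values below measure the spread between these samples. Values are log2 levels, so that a difference of 1 is a doubling of signal. The number of arrays limits the precision.

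Butyrate, which gut bacteria make from fibre, is the main fuel of colonocytes. It enters these cells through MCT1, the product of Slc16a1, and SMCT1, the product of Slc5a8, and is oxidised in the mitochondria by the enzymes that also shorten other fatty acids. Long chains need the carnitine shuttle to get into the mitochondria, whereas butyrate does not. Each round of beta-oxidation has a dehydrogenation, a hydration, a second dehydrogenation and a cleavage. PPAR γ binds DNA with the retinoid X receptor at direct repeats of a short core motif, and is itself expressed in colonocytes.

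Some samples stood apart. The median of the pancreatic acinar genes was 12.45 in WT day 2 replicate 2, 12.86 in CD4cre day 2 replicate 1 and 13.47 in CD4cre day 0 replicate 2, against at most 2.68 in every other sample. CD4cre day 7 replicate 2 had Pearson correlations of 0.955 and 0.951 with the other samples of its group, which had 0.983 with each other, over 23367 probe sets above background. The level of background was set at 3.29, and all 10 genes were above it in every sample. The 8 markers of columnar epithelium were above background too. The deleted gene itself, Pparg, had mean levels of 10.05 ± 0.50 in CD4cre and 10.64 ± 0.63 in WT mucosa on day 0 (SD, n = 3 each), which did not differ past the test (limma, adjusted p = 0.967).

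Of the 10 genes, 1 changed. Echs1 fell in CD4cre mice on day 7, against day 0 and against day 2. None of the other 9 genes passed the test in any of the 11 comparisons. These set the days against each other within a genotype, the genotypes against each other within a day, and the DSS effects of days 2 and 7 of one genotype against those of the other. By limma, an unadjusted p under 0.05 was reached by 0 to 4 of the 10 genes per comparison, the 4 being in CD4cre mice between day 2 and day 7, where 8519 of all 45037 probe sets reached it. The share of all probe sets that passed was 6.74% for CD4cre day 7 against day 0, 3.24% being lower, and 5.42% for day 7 against day 2, 2.93% being lower. The 1 of 10 genes in each of these comparisons is near the share of the whole array, which among probe sets above background was 6.06% lower for day 7 against day 0 and 5.49% lower for day 7 against day 2. The share was 1.51% between the genotypes on day 7 and under 1% in the other 8 comparisons, with 0.00666% between the genotypes on day 0, 0.0422% on day 2 and 0.00222% for the DSS effects of day 2.

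**Figure D1:**
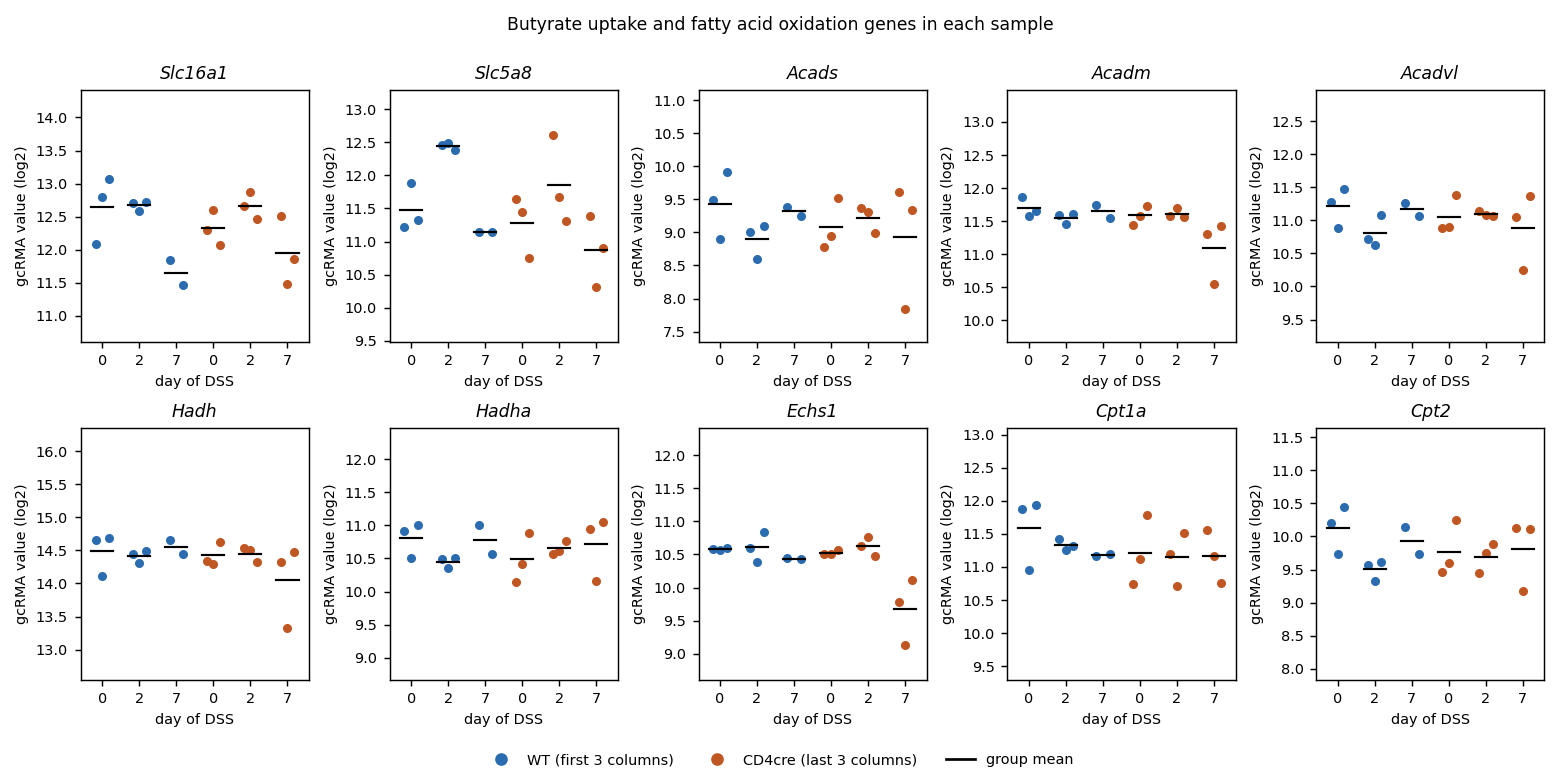
Level of each of the 10 genes in each of the 17 samples (vertical axis, gcRMA log2 value; horizontal axis, day of DSS, WT in blue and CD4cre in orange). A point is a sample and a line the group mean, and all panels span the same number of log2 units. The CD4cre samples of day 7 are below all other samples for Echs1, and the middle point of that group, replicate 2, is the lowest point in 7 of the 10 panels.

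The stretches of DNA just before the start of the gene are shown for Echs1, the gene that changed, and for Slc16a1 and Slc5a8, the transporters that carry butyrate. They are the RefSeq sequences of build GRCm38.p6, the 250 bases before the annotated start, and all 10 genes had an entry. Echs1 lies at chr7:140116422-140116671 on the minus strand, Slc16a1 at chr3:104638414-104638663 on the plus strand and Slc5a8 at chr10:88885742-88885991 on the plus strand. Capitals mark the letters AGGTCA (the core motif of nuclear receptors), GGGCGG (the GC box), CCAAT and TATAAA, each searched on both strands, so that CCGCCC is a GC box on the other strand.
Echs1: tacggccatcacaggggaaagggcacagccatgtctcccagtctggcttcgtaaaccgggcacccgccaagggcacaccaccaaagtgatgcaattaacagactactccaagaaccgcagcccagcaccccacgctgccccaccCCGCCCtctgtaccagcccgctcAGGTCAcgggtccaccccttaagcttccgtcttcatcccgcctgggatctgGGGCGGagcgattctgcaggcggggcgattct
Slc16a1: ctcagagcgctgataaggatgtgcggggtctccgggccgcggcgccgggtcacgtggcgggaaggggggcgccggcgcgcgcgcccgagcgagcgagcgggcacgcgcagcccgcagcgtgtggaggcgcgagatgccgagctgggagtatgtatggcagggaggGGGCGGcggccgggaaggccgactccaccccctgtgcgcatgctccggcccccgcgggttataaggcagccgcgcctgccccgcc
Slc5a8: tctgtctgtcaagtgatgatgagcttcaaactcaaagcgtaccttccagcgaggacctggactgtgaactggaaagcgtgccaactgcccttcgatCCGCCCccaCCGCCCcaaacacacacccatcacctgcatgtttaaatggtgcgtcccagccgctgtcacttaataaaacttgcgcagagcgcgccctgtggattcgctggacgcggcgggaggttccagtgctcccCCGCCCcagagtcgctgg

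The stretch of Echs1 holds 1 AGGTCA, which begins 83 bases before the start, and GC boxes 106 and 32 bases before it. Slc16a1 has 1 GC box at 85 bases and Slc5a8 has GC boxes at 154, 145 and 18 bases, and neither has AGGTCA. Over windows of 300 bases, which also hold the first 50 bases of the transcript, AGGTCA was in 4 of the 10 genes (Acadm, Acadvl, Echs1 and Cpt1a) and in 16.3% of 32851 mouse promoters. The GC box was in 8 of 10 genes against 35.7% of promoters, CCAAT in 2 of 10 against 37.4%, and TATAAA in none of 10 against 13.6%. The bases G and C made up 50.7% of the window of Acadvl and 57.3% (Cpt2) to 73.7% (Slc16a1) of the others. The median over all promoters was 52.7%, and the part of base content in these counts was not tested. Neither AGGTCANAGGTCA, a direct repeat with 1 base between the motifs, nor the looser AGGNCANAGGNCA was in a window of the 10 genes. They were in 0.0396% and 0.381% of promoters. These are matches of letters and not binding sites.

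The product of Echs1 is the mitochondrial short-chain enoyl-CoA hydratase, which adds water to the crotonyl-CoA made from butyrate. In CD4cre mice the 3 samples had 10.51, 10.50 and 10.57 on day 0, 10.63, 10.76 and 10.47 on day 2 and 9.78, 9.14 and 10.12 on day 7. The WT samples had 10.59, 10.57 and 10.60 before DSS, 10.60, 10.39 and 10.84 on day 2 and 10.44 and 10.43 on day 7. Each of the CD4cre samples of day 7 was below every other sample, and the 3 were further apart than the samples of any other group. Echs1 (probe set 1452341_at) fell by 0.85 on the log2 scale in CD4cre mice between day 0 and day 7 (SE 0.19, 95% interval -1.26 to -0.43, adjusted p = 0.0223 by limma), which is 1.80-fold. Between day 2 and day 7 it fell by 0.94 (SE 0.19, interval -1.36 to -0.53, adjusted p = 0.0154). In WT mice the difference of day 7 from day 0 was -0.15 (interval -0.61 to 0.31, adjusted p = 0.767), and the 2 samples of day 7 were both just below those of day 0.

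The fall of Echs1 was not shown to depend on the genotype. CD4cre minus WT on day 7 was -0.76 (interval -1.22 to -0.29, adjusted p = 0.108). The CD4cre samples were lower without overlap, as was so for 2 of the 10 genes and for 22.1% of probe sets above background. The difference of the DSS effects was -0.70 (interval -1.32 to -0.07), with an unadjusted p of 0.0313 and an adjusted p of 0.428. Without CD4cre day 7 replicate 2 these differences were -0.49 (adjusted p = 0.131) and -0.43 (adjusted p = 0.427). On day 0 the difference between the genotypes was -0.06 and on day 2 it was 0.01. The call for day 7 against day 0 was lost under several settings that change the samples or the estimate of spread. With only the groups compared in the fit the adjusted p was 0.215, without the 3 samples with pancreatic transcripts 0.104, and without any single CD4cre day 0 sample it was from 0.0635 to 0.0683. Without CD4cre day 7 replicate 2 the difference was -0.58 (adjusted p = 0.0248), and without that sample and the 3 pancreatic ones it was -0.59 (adjusted p = 0.065). For day 7 against day 2 the adjusted p was 0.311 with only the groups compared, 0.0697 without the 3 pancreatic samples and 0.0671 without CD4cre day 2 replicate 2.

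Markers of other cells moved in the same samples. In bulk mucosa, fewer cells of a type and less RNA per cell cannot be told apart. The mean of the 9 leukocyte markers was 5.16 to 5.27 in CD4cre mice on day 0 and 7.73 to 8.93 on day 7, where 7 of the 9 rose, while the T cell gene Cd3e and the B cell gene Cd79a were at background. All 5 fibroblast markers rose, from means of 11.28 to 11.49 on day 0 to 12.44 to 13.62 on day 7. None of the 8 markers of columnar epithelium passed the test against day 0 (1 with an unadjusted p under 0.05), and their mean was 12.50 to 12.68 on day 0 and 12.16 to 12.73 on day 7. Against day 2, 2 of these 8 fell. Of 5 goblet cell markers, 1 fell against day 0 (adjusted p = 0.0227). All 5 smooth muscle markers had negative differences, with a median of -0.68, and none passed (2 with an unadjusted p under 0.05). In WT mice the leukocyte mean was 5.24 to 5.29 on day 0 and 6.33 to 6.44 on day 7, and none of the 9 passed, with an unadjusted p under 0.05 in 6 of them. CD4cre day 7 replicate 2 had the lowest Echs1, the lowest mean of columnar epithelium, and the highest leukocyte and fibroblast means of all 17 samples. Its goblet cell mean was 13.60, against 12.80 and 13.37 in the other samples of its group. Its mean of surface colonocyte markers was 13.50, against 13.55 and 13.16 in those samples. The part of these cells in the fall of Echs1 was not tested.

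**Figure D2:**
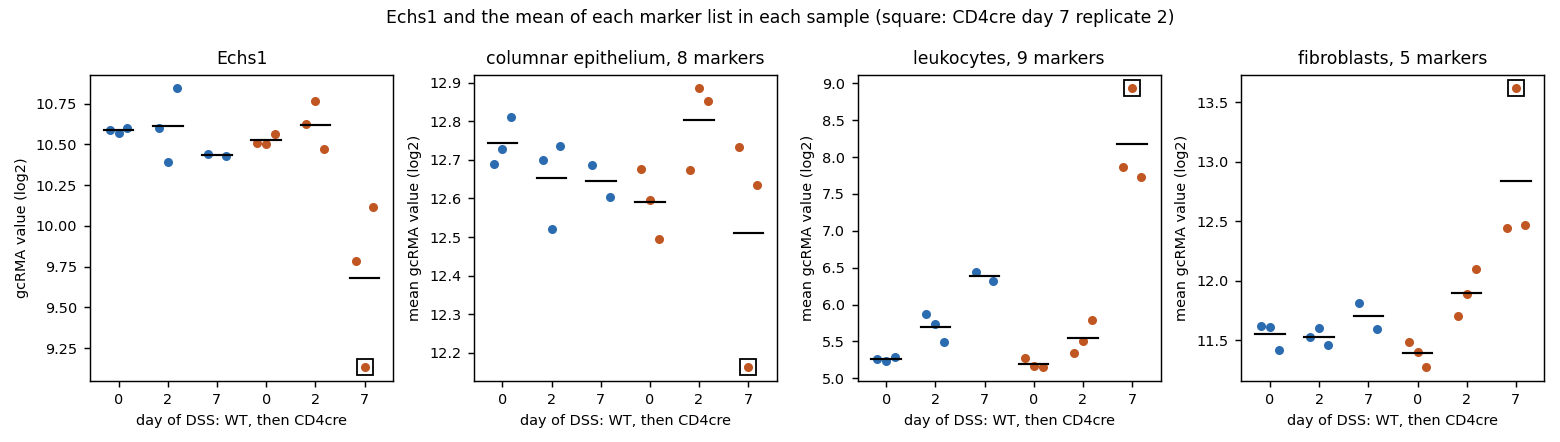
Echs1 and the mean of 3 marker lists in each sample (vertical axes, gcRMA log2 value, each panel with its own range; horizontal axis, day of DSS, WT in blue and then CD4cre in orange; lines are group means). The square marks CD4cre day 7 replicate 2, which has 9.14 for Echs1, 12.16 for columnar epithelium, 8.93 for leukocytes and 13.62 for fibroblasts.

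The transporters had their lowest group means on day 7 in both genotypes. Slc16a1 (MCT1, probe set 1415802_at) carries butyrate and lactate together with protons. In WT mice it had 12.09, 12.79 and 13.07 on day 0, 12.71, 12.59 and 12.72 on day 2 and 11.84 and 11.47 on day 7. In CD4cre mice it had 12.29, 12.60 and 12.07 on day 0, 12.66, 12.87 and 12.46 on day 2 and 12.51, 11.49 and 11.86 on day 7. The WT samples of day 7 were below all 6 earlier WT samples, while those of CD4cre mice overlapped with day 0 and day 2. The difference of day 7 from day 0 was -0.997 in WT mice (SE 0.31, interval -1.67 to -0.33), the largest of the 10 genes in that comparison, with an adjusted p of 0.447. Only 0.0866% of all probe sets passed in that comparison, and 14.8% of those above background were lower without overlap, as 3 of the 10 genes were. In CD4cre mice the difference was -0.37 (interval -0.97 to 0.23, adjusted p = 0.397), and the DSS effects of the genotypes differed by 0.63 (interval -0.27 to 1.53, adjusted p = 0.74). The mean of 6 markers of surface colonocytes, the cells that take up butyrate, was 12.59 to 14.16 in WT mice on day 0, 13.60 to 13.88 on day 2 and 12.51 to 12.67 on day 7. None of the 6 passed there for day 7 against day 0 (1 with an unadjusted p under 0.05, median difference -0.68) or against day 2 (4 with an unadjusted p under 0.05). In CD4cre mice the mean of these markers was 12.66 to 13.82 on day 0, 13.79 to 14.03 on day 2 and 13.16 to 13.55 on day 7. For day 7 against day 0 in CD4cre mice, 4 of the 6 differences were positive, with a median of 0.13. None passed (1 with an unadjusted p under 0.05). The part of these cells in the transporter values was not tested.

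Slc5a8 (SMCT1, probe set 1425606_at) takes up butyrate together with sodium. In WT mice it had 11.22, 11.88 and 11.33 on day 0, 12.46, 12.50 and 12.38 on day 2 and 11.14 and 11.15 on day 7. In CD4cre mice it had 11.64, 11.44 and 10.74 on day 0, 12.61, 11.67 and 11.30 on day 2 and 11.39, 10.31 and 10.90 on day 7. The WT samples of day 2 stood above those of both other days, and in CD4cre mice the days overlapped. The WT difference of day 2 from day 0 was 0.97 (SE 0.35, interval 0.20 to 1.74, adjusted p = 0.342), in a comparison in which 0.449% of all probe sets passed, and that of day 7 from day 2 was -1.30 (SE 0.39, interval -2.16 to -0.45, adjusted p = 0.237), in one in which 0.244% passed. With only the groups compared in the fit, the latter passed (adjusted p = 0.00777), as did 713 of all 45037 probe sets. With array quality weights both passed, the former at 1.17 (adjusted p = 0.00126) beside 8277 of all probe sets and the latter (adjusted p = 0.0414) beside 1215. In CD4cre mice the same differences were 0.59 (adjusted p = 0.754) and -0.996 (adjusted p = 0.131). A score of Hox genes, which mark position along the gut, was 0.52 to 0.85 in the WT samples of day 2, -1.03 to -0.18 in those of day 0 and -1.35 and -1.22 in those of day 7. With this score as a covariate the WT differences were 0.50 for day 2 against day 0 (adjusted p = 0.979) and -0.62 for day 7 against day 2 (adjusted p = 0.65). The WT scores did not overlap between these days, so that day and position cannot be told apart in these differences.

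The carnitine shuttle genes showed no call. Cpt1a, whose product on the outer mitochondrial membrane makes long-chain acylcarnitines and controls their entry, ranged from 10.72 to 11.93 over the 17 samples, and its group means lay within 0.44 of each other. The samples of every pair of groups next to each other in the order of means overlapped. Its difference of day 7 from day 0 was -0.05 in CD4cre mice (interval -0.75 to 0.64) and -0.41 in WT mice (interval -1.19 to 0.37). Cpt2, whose product on the inner membrane turns acylcarnitines back into acyl-CoA, had WT values of 10.20, 9.74 and 10.44 before DSS, 9.56, 9.33 and 9.62 on day 2 and 10.14 and 9.73 on day 7. Those of day 2 were below those of both other days, with a difference from day 0 of -0.62 (interval -1.24 to -0.0044, adjusted p = 0.515). In CD4cre mice Cpt2 differed between day 2 and day 0 by -0.08 (interval -0.69 to 0.54).

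The acyl-CoA dehydrogenases, which take the first step, differ in the chain length they prefer. Acadm serves medium chains. In CD4cre mice it had 11.45, 11.58 and 11.73 on day 0, 11.58, 11.70 and 11.56 on day 2 and 11.31, 10.56 and 11.42 on day 7, and in WT mice it was between 11.46 and 11.86 in all 8 samples. The CD4cre samples of day 7 were below all others, by little in replicates 1 and 3. The difference from day 0 was -0.49 (SE 0.18, interval -0.88 to -0.10, adjusted p = 0.129). Acadm and Echs1 were the 2 of 10 genes that were lower without overlap in this comparison, against 19.7% of probe sets above background. Without CD4cre day 7 replicate 2 the difference was -0.22 (adjusted p = 0.271), whereas with median centring of the arrays it was -0.55 (adjusted p = 0.0375), a setting under which 18002 of all 45037 probe sets passed.

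Acads, the short-chain enzyme that takes butyryl-CoA, had 8.77, 8.95 and 9.52 in CD4cre mice on day 0 and 9.61, 7.85 and 9.34 on day 7. In WT mice it had 9.48, 8.90 and 9.92 on day 0 and 9.38 and 9.25 on day 7. The groups overlapped, and of the 3 CD4cre samples of day 7 only replicate 2 was below the lowest value of day 0. The difference of day 7 from day 0 was -0.15 in CD4cre mice (interval -1.02 to 0.73) and -0.12 in WT mice (interval -1.09 to 0.86). Acadvl, the enzyme for very long chains, had differences of -0.17 (interval -0.72 to 0.38) and -0.05 (interval -0.66 to 0.57), and its values on day 7 in CD4cre mice were 11.04, 10.24 and 11.37.

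Apart from Echs1, the genes of the later steps, Hadh and Hadha, were also without a call. Hadh encodes the short-chain 3-hydroxyacyl-CoA dehydrogenase of the second oxidation. In CD4cre mice it had 14.34, 14.29 and 14.63 on day 0 and 14.33, 13.33 and 14.48 on day 7. Replicates 1 and 3 of day 7 lay within the range of day 0 and replicate 2 was below it, so that the difference of -0.38 (interval -0.92 to 0.17, adjusted p = 0.349) was -0.02 without that sample. Its other probe sets gave -0.52 and -0.45, which did not pass either. Hadha, the subunit of the trifunctional protein that carries out hydration and second oxidation of long chains, had 10.15, 10.42 and 10.89 on day 0 and 10.94, 10.17 and 11.05 on day 7 in CD4cre mice. Its difference was 0.23 (interval -0.29 to 0.76).

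**Figure D3:**
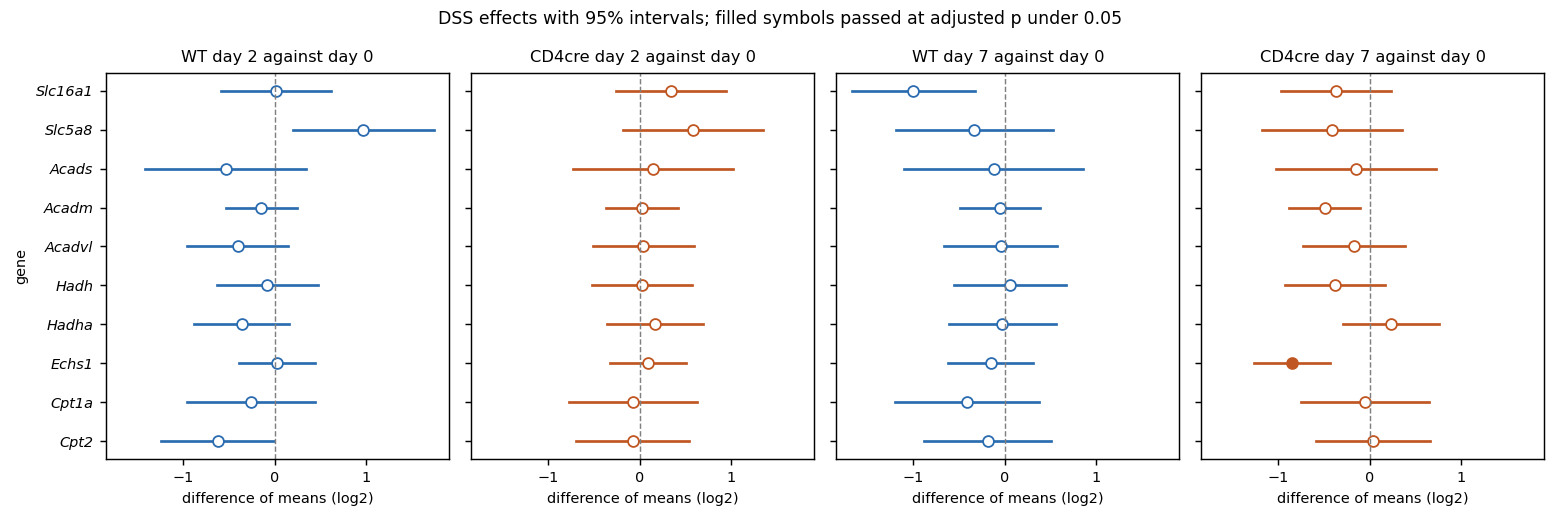
Difference of group means from day 0 (horizontal axis, log2) for the 10 genes (vertical axis) on day 2 and day 7 in WT and CD4cre mice, with 95% intervals from limma. The only filled symbol, Echs1 in CD4cre mice on day 7 at -0.85, passed the test, and the widest interval is that of Acads in WT mice on day 7, from -1.09 to 0.86.

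Across the list, 8 of 10 differences were negative in CD4cre mice on day 7 against day 0, with a median of -0.27, while the median of all probe sets above background was -0.04. This rested on 1 sample. CD4cre day 7 replicate 2 had the lowest value of all 17 samples in 7 of the 10 genes, and its mean over the 10 genes was 10.34, against 11.26 and 11.14 in the other samples of its group. Its Hox score was 0.11, against -0.91 and -1.04 in those samples, and the part of position was not tested. Without this sample the median was -0.04 and 6 of 10 were negative. In WT mice on day 7 the median was -0.13 with 9 of 10 negative, against 0.03 over all probe sets above background. On day 2 the medians were 0.07 in CD4cre and -0.20 in WT mice, with 8 and 3 of 10 positive, and 0.0178% and 0.449% of all probe sets passed in these comparisons. The WT median of day 2 turned to 0.47, with all 10 positive, with the Hox score as a covariate. The WT scores did not overlap between day 2 and day 0, so that day and position cannot be told apart there. With the score, the WT median of day 7 against day 2 went from 0.12 to -0.99. That of CD4cre against WT on day 7 went from -0.28 to 0.18. The genotypes differed on day 0 by a median of -0.26 with all 10 genes lower in CD4cre mice, but the lowest adjusted p was 0.967 and none had an unadjusted p under 0.05. The comparisons with day 0 within a genotype share the day 0 samples.

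The order of the 6 groups was in general not resolved. Of 50 pairs of groups next to each other in the order of means, 46 had overlapping samples. The 4 others were in Echs1, with 3, and in Acadm, with 1. In Echs1, the means of WT day 0 and CD4cre day 0 were only 0.06 apart. The share of such pairs over all probe sets was not counted, so the 4 are a description. For Echs1 the order ran from CD4cre day 2 at 10.62, through WT day 2 at 10.61, WT day 0 at 10.59, CD4cre day 0 at 10.53 and WT day 7 at 10.44, to CD4cre day 7 at 9.68. The root mean square of the SDs over the 10 genes was highest in CD4cre mice on day 7 (0.58) and lowest in WT mice on day 2 (0.15), where probe sets above background had 0.51 and 0.32.

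A wider list of 45 genes of the same pathways, of which 39 were measured, had more calls in the same comparison. In CD4cre mice on day 7 against day 0, 3 rose and 6 fell, with a median over the list of -0.28, and in WT mice none passed (1 with an unadjusted p under 0.05), with a median of -0.03. Beside the 6.74% of all probe sets that passed in CD4cre mice, the 9 of 39 genes are a description, since the list was set with earlier results of these data known. The count was 0 with only the groups compared in the fit, where 28 of all 45037 probe sets passed, and 1 without the 3 pancreatic samples. It was 3 without CD4cre day 0 replicate 1 or 2 or CD4cre day 7 replicate 1, and 14 without CD4cre day 7 replicate 3. Without CD4cre day 7 replicate 2 it was 7. The counts over all probe sets in these fits with fewer samples are not given. The counts of the list thus cannot be set against the whole array.

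The 4 largest falls among those that passed in CD4cre mice on day 7 against day 0 were in Slc16a7, Ppargc1a, Acss2 and Acat1. Slc16a7 (MCT2), another monocarboxylate transporter, had 6.29, 6.26 and 6.34 on day 0 and 3.57, 4.74 and 4.51 on day 7 in CD4cre mice and fell by 2.03 (SE 0.46, adjusted p = 0.0228). Ppargc1a, the coactivator PGC-1α that drives mitochondrial genes, had 9.34, 9.54 and 9.96 on day 0 and 7.58, 7.42 and 8.92 on day 7 and fell by 1.65 (SE 0.44, adjusted p = 0.0441). Acss2, which makes acetyl-CoA from acetate in the cytosol and nucleus, had 10.58, 10.44 and 10.22 on day 0 and 9.04, 8.60 and 8.92 on day 7 and fell by 1.56 (SE 0.23, adjusted p = 0.00319). In these 3 genes and in Acat1 the samples of day 7 were below those of day 0 without overlap. That was so for 13 of the 39 genes and for 19.7% of probe sets above background. Acat1, the mitochondrial thiolase that splits acetoacetyl-CoA, the last step for butyrate, fell by 0.77 (SE 0.20, adjusted p = 0.0414), from 11.57 to 11.83 on day 0 to 10.42 to 11.46 on day 7.

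Acss1 and Hsd17b10 also passed in other comparisons. Acss1, which makes acetyl-CoA from acetate in the mitochondria, had 9.98, 9.80 and 9.76 on day 0 and 9.15, 8.72 and 9.47 on day 7 in CD4cre mice, and 9.88 and 9.87 in WT mice on day 7. It fell by 0.73 against day 0 (adjusted p = 0.0135) and by 0.90 against day 2 (adjusted p = 0.00551), and was lower in CD4cre than in WT mice on day 7 (difference -0.76, SE 0.16, adjusted p = 0.0465). Hsd17b10, a 3-hydroxyacyl-CoA dehydrogenase of branched and short chains, had 10.78, 10.78 and 10.72 on day 0 and 10.09, 9.80 and 10.33 on day 7 in CD4cre mice, and 10.76 and 10.79 in WT mice on day 7. It fell by 0.69 against day 0 (adjusted p = 0.00755) and by 0.72 against day 2 (adjusted p = 0.00709), and was lower than in WT mice on day 7 (difference -0.70, SE 0.14, adjusted p = 0.0318). These were the only 2 of 39 genes that passed between the genotypes on day 7, where 1.51% of all probe sets did, and no gene of the list passed there without CD4cre day 7 replicate 1 or 2, CD4cre day 0 replicate 2, WT day 2 replicate 1 or either WT day 7 sample. None passed there with the replicate block, with the Hox score or with only the groups compared in the fit. No gene of the 10 or of the 39 passed for the difference of the DSS effects, where 0.14% of all probe sets did, with unadjusted p under 0.05 in 1 and 9 of them and in 4427 of all 45037 probe sets.

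The 3 genes that rose in CD4cre mice on day 7 against day 0 were Acadl, Acsl5 and Emb. Acadl, the long-chain acyl-CoA dehydrogenase, had 11.39, 11.44 and 11.70 on day 0 and 12.52, 12.01 and 12.52 on day 7 and rose by 0.84 (SE 0.18, adjusted p = 0.0176). Acsl5, which activates long chains, rose by 0.52 (SE 0.11, adjusted p = 0.021), from 9.89 to 10.11 on day 0 to 10.30 to 10.64 on day 7. Emb, a chaperone of monocarboxylate transporters that is also made by blood cells, had 2.47, 2.18 and 2.68 on day 0, all at background, and 5.81, 6.78 and 3.28 on day 7, of which the third was at background too. The mean of day 7 was about 4.0-fold above the background level, and the rise from day 0 passed the test (adjusted p = 0.0197 by limma). Emb was highest in replicate 2, the sample with the highest leukocyte mean, and the part of these cells in its rise was not tested. In WT mice, Slc16a4 was the only gene of the list that passed, with 3.84, 4.64 and 3.74 on day 2 and 5.80 and 5.68 on day 7 (difference 1.67, SE 0.29, adjusted p = 0.0419). Of all probe sets, 0.244% passed in that comparison. Its samples also differed in the Hox score, with 0.52 to 0.85 on day 2 and -1.35 and -1.22 on day 7.

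**Figure D4:**
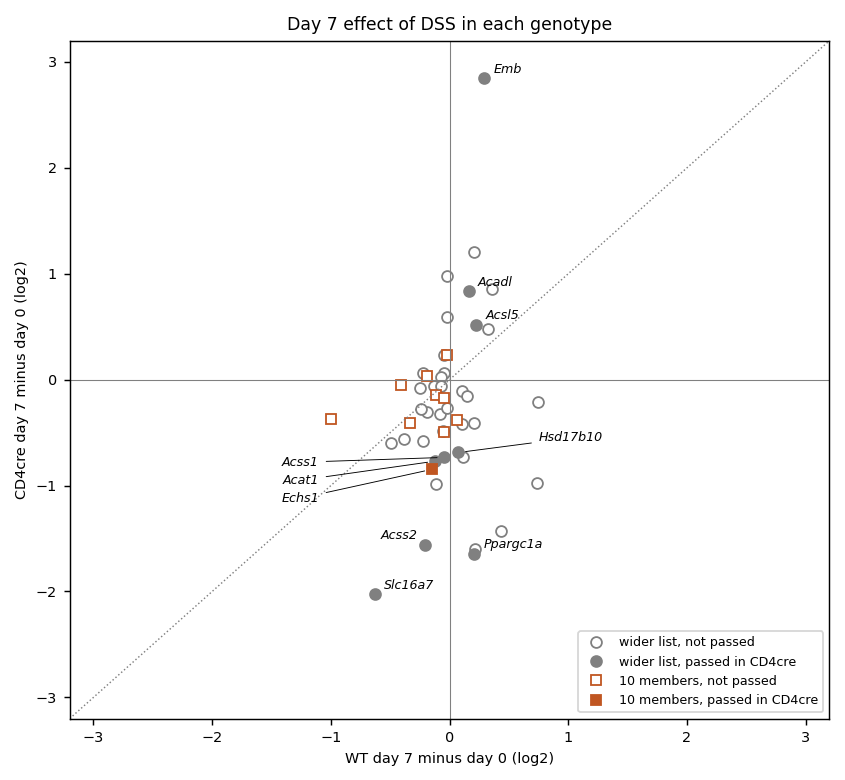
Difference of day 7 from day 0 in CD4cre mice (vertical axis, log2) against that in WT mice (horizontal axis, log2) for the 10 genes (squares) and the 39 measured genes of the wider list (circles), where filled symbols passed in CD4cre mice and the dotted line marks equal differences. Slc16a1, at -0.997 in WT mice, is the square farthest to the left. The topmost circle is Emb, which was at background on day 0, so that its height has no exact value.

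By role, the wider list was split in CD4cre mice on day 7. Against day 0, 6.74% of all probe sets passed and 10333 of 45037 had an unadjusted p under 0.05. Of 6 acyl-CoA synthetases measured, 1 rose and 2 fell, with a median of -0.67 (6 with an unadjusted p under 0.05). Of 9 genes of mitochondrial beta-oxidation, 1 rose and 2 fell, with a median of -0.11 (4 with an unadjusted p under 0.05). All 4 measured genes of the carnitine system had positive differences with a median of 0.53 and none passed (2 with an unadjusted p under 0.05). The largest of these, that of Cpt1c at 0.86, was in a gene with a mean level of 3.06, which is at background. Cpt1a and Cpt2 of the 10 genes had -0.05 and 0.04. All 3 electron transfer genes and all 3 peroxisomal genes had negative differences, with medians of -0.33 and -0.56, and none passed (1 of each with an unadjusted p under 0.05). Of 4 regulators, Ppargc1a fell and the others, all with negative differences, did not pass.

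The genes with a course over the 17 samples most like the mean of the 10 genes were Gpd1l, Rassf7, Polr3c, Cyb5b and Uqcrc1. Each gene was centred on its own mean, and the root mean square difference from the list's mean was 0.101 to 0.110 for these 5, against a median of 0.353 over 11752 genes. For Slc16a1 the nearest were Ahcyl2 (0.249), Map2k1 (0.253) and Utp20 (0.268), with a median of 0.533 over all genes. For Slc5a8 they were Aacs (0.297), Scd2 (0.320) and Cers4 (0.321), with a median of 0.688.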

How the data were processed

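RNA of colonic mucosa was hybridized to Affymetrix Mouse 430 2.0 arrays. The authors used affy and gcRMA under R 2.9.0, so that the deposited values are log2 levels per probe set, adjusted for background, normalized across arrays and summarized. The deposited table has 45101 probe sets, and 64 controls were left out. Genes were named from the platform annotation: 34945 probe sets had 1 gene symbol, 932 several and 9160 none. No values of 2 arrays were identical. The model had 1 mean per group, 6 in all, over the 17 samples (limma 3.58.1, R 4.3.3), and its variances were moderated by empirical Bayes, with 0.888 prior and 11 residual degrees of freedom. Tests were two-sided, with Benjamini-Hochberg adjustment over all 45037 probe sets within each of 11 comparisons and a threshold of 0.05. Background was the 95th percentile of the single values, over all samples, of 54 probe sets of genes of other tissues. The fit was tested on simulated data. Depth does not apply to arrays.

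The 10 genes, the wider list and the marker lists were chosen with earlier results of these data known. Named were all 10 genes, from the wider list those that passed (at most the 4 largest rises and falls where over 8 passed in a comparison), and the 5 and 3 nearest genes by course. The Hox score was the mean log2 level of 9 genes of distal groups minus that of 7 lower ones. Motifs were searched in RefSeq promoters. Of the 45 genes of the wider list, 39 were measured and the others were not analysed here. Alternatives were fits of only the groups compared, median centring, quantile normalization, trend and robust moderation, array weights, a filter on background, a replicate block, the Hox score, other thresholds, all probe sets of a gene, leaving out samples, and, added after seeing the data, leaving out 4 samples.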

Additional observations from a re-analysis of the deposited data

How the results depend on the processing

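The count of the 10 genes that passed for CD4cre day 7 against day 0 was 1. It was 0 with only the groups compared, without the 3 pancreatic samples, without these and CD4cre day 7 replicate 2 (chosen after seeing the data) and at a threshold of 0.01, and 2 with median centring and with the Hox score. For day 7 against day 2 it was 1, with 0 under only the groups compared, without the 3 pancreatic samples and at 0.01, and 3 with the Hox score. Without any single sample the count was 0 to 2 for both, and 0 to 1 for CD4cre against WT on day 7, where the 1 is Echs1 without CD4cre day 7 replicate 3 (-0.98, adjusted p = 0.0098), and 0 for the other 8 comparisons. Where a WT day 7 sample was left out, the lone sample was assumed to vary like the other groups. Array weights gave 5 for WT day 2 against day 0, 5 for CD4cre against WT on day 0 and 1 for WT day 7 against day 2, where only the groups compared also gave 1, against 0 in each. In the first 2 of these, 8277 and 8408 of all 45037 probe sets passed with the weights, against 202 and 3. The estimation of the weights stopped before it converged. Of 108 differences of single genes that did not pass, 15 passed under some alternative. Cpt2 in WT mice on day 2, at -0.62, was 0.44 with the Hox score (adjusted p = 0.639). For the wider list the count for CD4cre day 7 against day 0 was 9, 16 with median centring or the Hox score, 14 with array weights, 2 without the 4 samples and 2 at a threshold of 0.01. Over the whole array 3036 probe sets passed in this comparison, 18002 with median centring, 4149 with the Hox score and 6208 with array weights. For day 7 against day 2 the count of the wider list was 4, and 9 above background and 14 with the Hox score. For CD4cre against WT on day 7 it was 2, and 0 with the Hox score, the replicate block or only the groups compared. Where no count over all probe sets is given for a setting, the count of a list cannot be set against the whole array. The cause of the changes under these settings was not tested, except that fewer samples were fitted where some were left out.

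Replicate numbers were not taken as pairs of samples in the main fit. Of 40 pairs of same-numbered samples in different groups, 15 had correlated deviations over 0.1 (range -0.45 to 0.51). These values alone cannot show whether the numbers pair the samples. With the replicate block Echs1 had adjusted p of 0.0283 against day 0 and 0.0219 against day 2, and no count of the 10 genes moved.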
